A study of Mus musculus with 15 samples.

Results

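The aquaporin water channels were followed across the distal colon mucosa of mice given water or dextran sodium sulfate (DSS). The members were 8 genes, Aqp1, Aqp3, Aqp4, Aqp5, Aqp7, Aqp8, Aqp9 and Aqp11. They were found by gene name in the scanner files, control spots left out, which gave 15 of the 56504 probes kept. Renamed by RefSeq accession or symbol where possible, the 56504 probes carried 37278 gene names. The rule used names only, but the 8 names were selected on earlier results of these same arrays, so no change described here is independent evidence of its direction. Of the 15 probes, 9 passed the detection filter, a signal marked as well above background in at least 5 mice, and entered the test. They were the single probes of Aqp1 and Aqp8, 3 of the 4 probes of Aqp4, both probes of Aqp11, and 1 of the 2 probes each of Aqp7 and Aqp9. Neither the probe of Aqp3 nor the 2 probes of Aqp5 passed. All mice were female Balb/cJ, 8 weeks old at the start, and there were 5 in each of 3 groups with 1 array per mouse. The water group drank water without DSS. The DSS vehicle group had 4% DSS in its water for 3 rounds of 4 days, with 3-day breaks on plain water, and received the vehicle in which filgotinib is dissolved. The filgotinib group had the same DSS and was dosed by gavage with filgotinib at 30 mg/kg each day. Filgotinib is a small molecule that inhibits the kinase JAK1 more than its relatives. Whether the water mice were gavaged cannot be told, since their compound is labelled vehicle control while the design text mentions drinking water alone. DSS is a polymer that injures the colon epithelium, and repeated rounds of it serve as a model of chronic colitis without a genetic cause. The tissue was a scrape of the mucosa along 30 mm of distal colon, so each value is from a mixture of cells, and fewer cells of a type cannot be told apart from less RNA per cell.

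Aquaporins are membrane proteins that assemble as tetramers, and each subunit forms its own pore. Orthodox members, here Aqp1, Aqp4, Aqp5 and Aqp8, mainly pass water along osmotic gradients. Aquaglyceroporins, here Aqp3, Aqp7 and Aqp9, also pass glycerol and other small solutes. Aqp11 is an unorthodox, intracellular member found at the endoplasmic reticulum. In the colon, water follows the salt that surface epithelial cells absorb, and aquaporins of epithelium and vessels are part of that route.

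Each probe is a 60-base DNA sequence, and what it reads depends on where in the transcript it lies. The last 30 bases are shown for the probes whose position matters for the values below. They were copied 5′ to 3′ from the scanner files, with the polyadenylation motif AATAAA in capitals where it occurred.
Aqp1, A_51_P125205: tcttatggtaagaaAATAAAggacaatgac
Aqp8, A_55_P2318584: ctgactttgtAATAAAtggcttagcatttc
Aqp11, A_55_P1995507: aggctcattcattaaacatctacctatccc
Aqp11, A_55_P2730441: gttttttccttccatggctgcataacaatc
Aqp9, A_66_P126202: gtactcagggctcccctggggtccagcccc
Aqp9, A_55_P2763530: ttctgagtctgaaattacctggatattttc
Aqp5, A_55_P2071236: gccagaggaggactgggaagatcatagaga
The motif was searched as these 6 letters on the printed strand only, in the last 30 bases of every probe. It was found in 3 of the 15 aquaporin probes and in 8.13% of the 56504 probes. Coordinates are of mouse build mm9, which 14 of the 15 file headers name. The Aqp1 probe lies on chromosome 6 at 55298480 to 55298539 and starts at base 2690 of NM_007472. The Aqp8 probe lies on chromosome 7 at 130611453 to 130611512 and starts at base 1421 of NM_007474. Both carry the motif. The 2 Aqp11 probes target NM_175105 on the minus strand of chromosome 7. A_55_P1995507 covers 104874889 to 104874948 without a gap. A_55_P2730441 is spread over 2325 bases of genome, from 104875158 to 104877482, so its 60 bases cross a splice junction. The 2 Aqp9 probes target different transcript records of chromosome 9. A_66_P126202 begins at base 283 of the predicted XM_011242783, and A_55_P2763530 at base 2557 of NM_001271843. The Aqp5 probe shown lies on chromosome 15 at 99424655 to 99424714, from base 945 of NM_009701. A split into exon and UTR was not used here, since no annotation of this build was at hand.

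An array detected 50.2% to 62.1% of its probes. The signal at the 75th percentile, to which each array was scaled, ran from 684 to 813 with water, from 570 to 667 with DSS and vehicle, and from 552 to 663 with filgotinib. All values below are log2 of the signal relative to that percentile, and a value of 0 is the percentile itself. Differing probes bind with differing strength, so levels are compared between mice for 1 probe and never between probes. Summed levels of a list add the brightest passing probe of each gene. They too are compared between mice only, and the brightest probes weigh most in them. The arrays lay on 6 slides scanned on 4 days. Water and DSS vehicle mice shared only slide 4, DSS vehicle and filgotinib mice shared only slide 2, and no slide held both water and filgotinib mice. The array of DSS vehicle mouse 3 was extracted with a grid file, unlike the other 14. All 11 epithelial genes looked for, Epcam and Vil1 among them, had a probe that passed the detection filter. That alone does not single out the labelled tissue, since 33466 of the 56504 probes passed. A passing probe was also found for 9 of 11 squamous genes. Summed over the 11 epithelial genes, the linear level relative to the 75th percentile was 1717 to 1850 with water, 2041 to 2208 with DSS and vehicle, and 1902 to 2193 with filgotinib.

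A probe was called at an adjusted p under 0.05 in limma, with Benjamini-Hochberg adjustment over all 33466 probes that passed, and "rose" and "fell" mean such calls. In DSS vehicle against water, 2 of the 9 aquaporin probes rose, both of Aqp4, and 1 fell, that of Aqp1. Over all probes, 8.72% rose and 8.78% fell in that comparison. In filgotinib with DSS against DSS vehicle, 1 aquaporin probe fell, of Aqp4, and none rose (limma, 0 higher also at an unadjusted p under 0.05), where 5.58% of all probes rose and 4.28% fell. In filgotinib with DSS against water, 2 rose, both of Aqp4, and none fell (0 also unadjusted), where 4.56% of all probes rose and 4.06% fell. With so few members these counts cannot be set apart from the background shares, and they were not tested as a list. The median change of the 33466 probes was 0.02, -0.01 and 0.02 in the 3 comparisons. Under scaling to each array's median the share of calls that were rises moved from 49.8% to 32.9% in the first comparison, from 56.6% to 72.6% in the second and from 52.9% to 39.9% in the third.

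**Figure D1:**
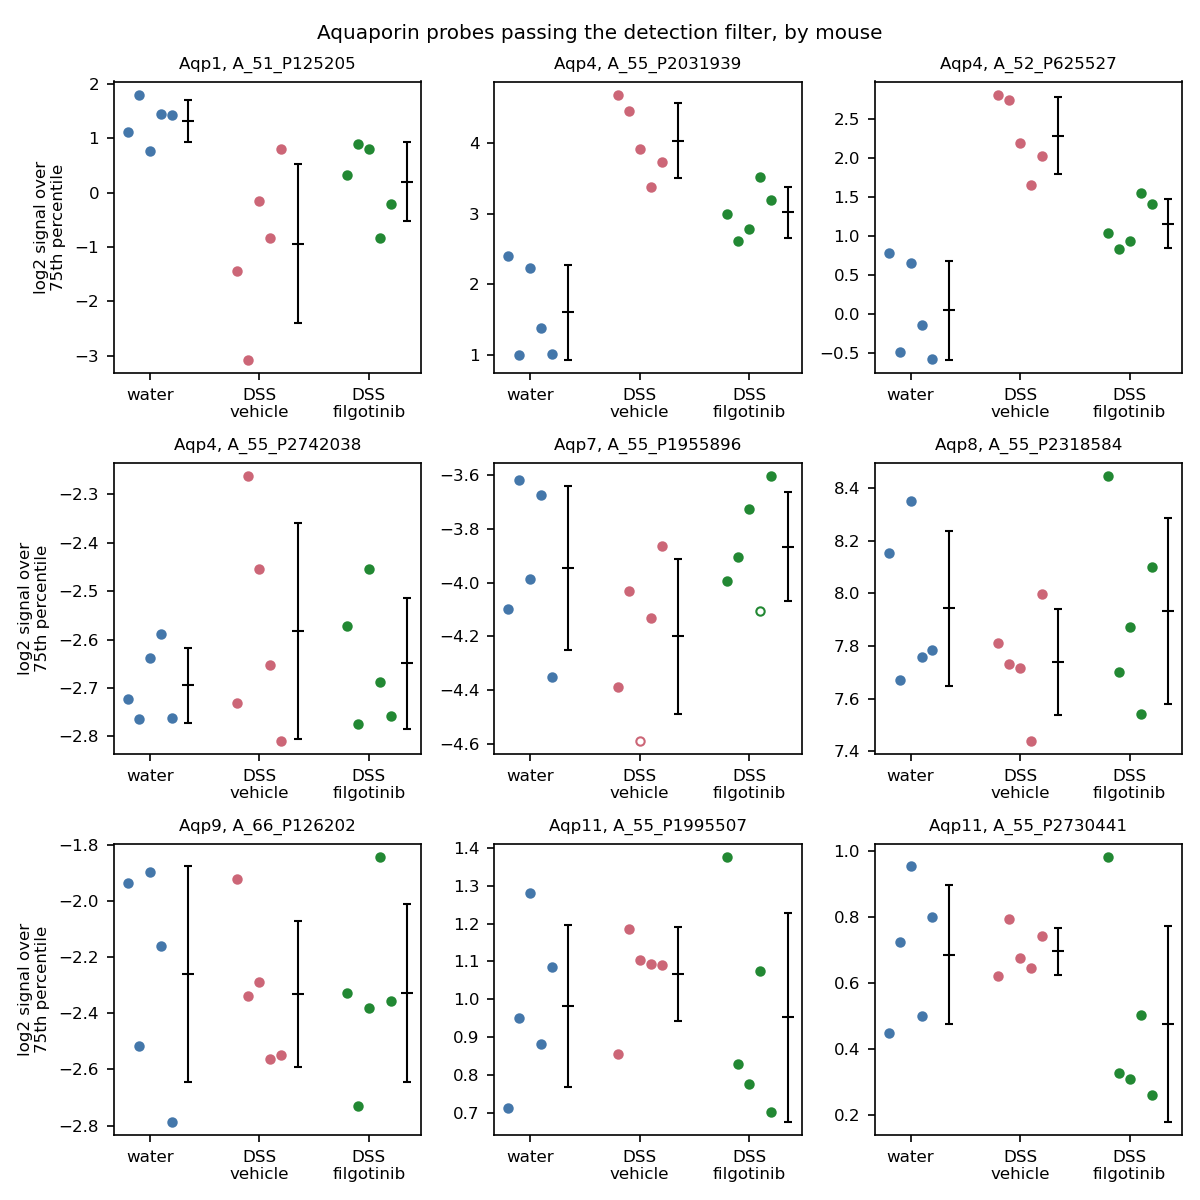
Log2 signal relative to the array's 75th percentile (vertical axes, each with its own range) for the 9 aquaporin probes that passed the detection filter. Each point is 1 mouse, in the order 1 to 5 within a group, open where not well above background, with the mean and SD beside it. The first Aqp4 panels show all DSS vehicle mice above all water mice, and the Aqp1 panel shows 4 of 5 DSS vehicle mice below the lowest water mouse.

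Aqp4 is a water channel best known from astrocytes and also found in the basolateral membrane of epithelial cells. Its signal rose 5.42-fold and 4.70-fold with DSS on the probes of the RefSeq transcript NM_009700. With filgotinib it lay between the other groups, and it fell against DSS vehicle on one of these probes. Probe A_55_P2031939, from base 4974 of that transcript, read 2.41, 0.99, 2.23, 1.37 and 1.01 in water mice 1 to 5. It read 4.69, 4.47, 3.92, 3.38 and 3.74 in the DSS vehicle mice. It read 2.99, 2.61, 2.78, 3.52 and 3.19 in the filgotinib mice. Every DSS vehicle mouse and every filgotinib mouse was above every water mouse, while filgotinib mouse 4 was above DSS vehicle mouse 4. The rise in DSS vehicle mice was 2.44 ± 0.32 (log2, SE, n = 5 per group), or 5.42-fold (limma adjusted p = 0.000331). Filgotinib mice stood 1.42 ± 0.32 above water, or 2.67-fold (limma adjusted p = 0.0192). Their log2 difference from DSS vehicle mice was -1.02 ± 0.32 and missed the threshold (limma adjusted p = 0.0542).

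Probe A_52_P625527 starts 4015 bases upstream in the same transcript, at base 959, and ordered the groups the same way. It read 0.78, -0.48, 0.66, -0.14 and -0.57 in water mice 1 to 5. It read 2.81, 2.74, 2.19, 1.66 and 2.02 in DSS vehicle mice. It read 1.04, 0.83, 0.93, 1.55 and 1.41 in filgotinib mice. None of the 3 groups overlapped another on this probe. Its rise with DSS was 2.23 ± 0.29, or 4.70-fold (limma adjusted p = 0.000342). It fell by 1.13 ± 0.29 on the log2 scale, or 2.19-fold, in filgotinib mice against DSS vehicle mice (limma adjusted p = 0.0267). It was higher by 1.1 ± 0.29, or 2.15-fold, in filgotinib mice than in water mice (limma adjusted p = 0.0340).

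The distance between the probes of NM_009700 varied little within a group but was smaller in water mice than in the others. The log2 value of A_55_P2031939 minus that of A_52_P625527 was 1.73 ± 0.15 (SD, n = 15 mice), from 1.47 to 1.97. By group this distance was 1.55 ± 0.06 in water, 1.76 ± 0.07 in DSS vehicle and 1.87 ± 0.09 in filgotinib mice (SD, n = 5 each). Water mice, at 1.47 to 1.63, overlapped neither DSS vehicle mice, at 1.72 to 1.89, nor filgotinib mice, at 1.78 to 1.97. Apart from this shift between groups, differences between mice were much alike on both probes.

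The other Aqp4 probes target predicted transcripts and lie further upstream, and only one of them passed the detection filter. In mm9 the 4 probes lie on the minus strand of chromosome 18, at 15547951 to 15548010 for A_55_P2031939 and 15551966 to 15552025 for A_52_P625527. A_55_P2742038 lies 10724 bases upstream of A_52_P625527, at 15562690 to 15562749, from base 445 of the predicted XM_011246812. It was well above background on all 15 arrays and read -2.76 to -2.59 with water, -2.81 to -2.26 with DSS and vehicle, and -2.77 to -2.45 with filgotinib. The groups overlapped, and the difference between DSS vehicle and water was 0.11 with a 95% confidence interval of -0.10 to 0.33 (limma adjusted p = 0.467). That interval lies wholly below the rises of the NM_009700 probes. A_55_P2742033, from base 261 of the predicted XM_011246813, was well above background on no array. The rise with DSS was thus read by the probes of the curated transcript, and the measured probe of a predicted variant was not called. Whether A_55_P2742038 can register a change of that variant was not tested, so a difference between transcripts cannot be read from this.

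**Figure D2:**
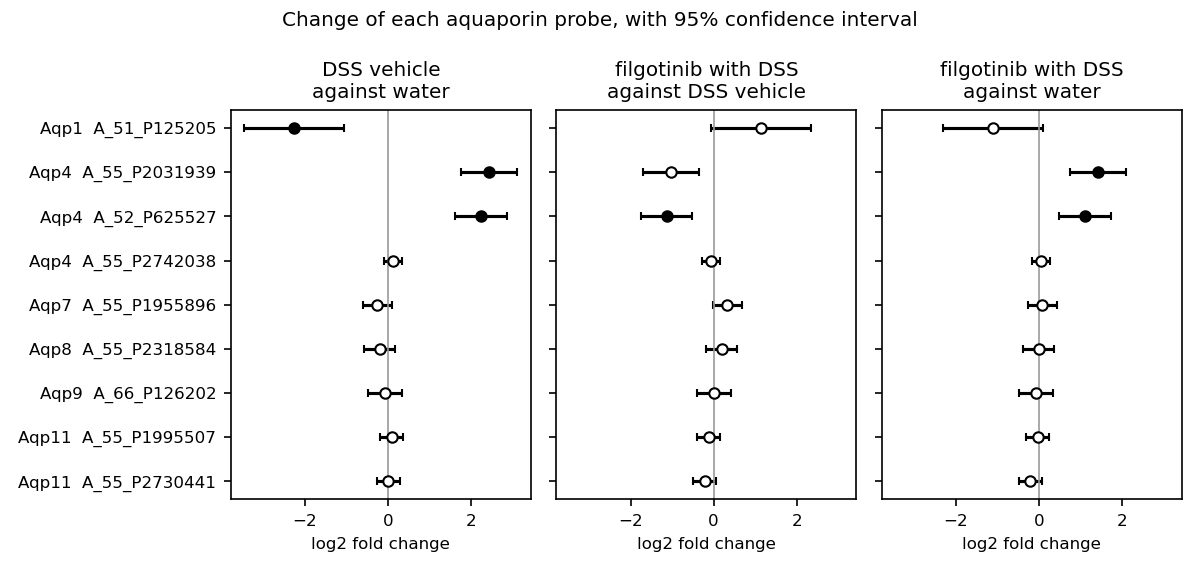
Log2 fold change (horizontal axes) of the 9 aquaporin probes that passed, in the 3 comparisons, with the 95% confidence interval from limma. Filled points are called at an adjusted p under 0.05. The interval of Aqp1 in DSS vehicle against water runs from -3.46 to -1.05, and those of Aqp7, Aqp8, Aqp9 and Aqp11 include 0 in all 3 comparisons.

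Aqp1 is the water channel of red blood cells, capillary endothelium and several epithelia. Its signal fell 4.77-fold with DSS, and the filgotinib mean lay between those of the other groups. It read 1.12, 1.80, 0.77, 1.46 and 1.44 in water mice 1 to 5. It read -1.44, -3.08, -0.15, -0.83 and 0.81 in DSS vehicle mice. It read 0.33, 0.90, 0.80, -0.84 and -0.21 in filgotinib mice. DSS vehicle mouse 5 lay within the range of the water mice and the other 4 lay below it, with mouse 2 lowest. The SD was 1.46 in DSS vehicle mice, against 0.39 in water and 0.73 in filgotinib mice (n = 5 each). With DSS it fell by 2.25 ± 0.56 on the log2 scale, or 4.77-fold (limma adjusted p = 0.0145). Without DSS vehicle mouse 2 it fell by 1.72 and without mouse 5 by 2.69 on that scale, and it stayed called without any single mouse. Filgotinib mice differed from DSS vehicle mice by 1.14 ± 0.56, with a 95% confidence interval of -0.07 to 2.34 (limma adjusted p = 0.208). Against water they differed by -1.12 ± 0.56, with an interval of -2.32 to 0.09 (limma adjusted p = 0.215). In the order water, filgotinib, DSS vehicle, neither neighbouring pair of groups therefore differed past the threshold, while the ends did.

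Slides and scan days were not spread evenly over the groups, so the Aqp4 and Aqp1 values were also read within them. On slide 4, the Aqp4 probes of DSS vehicle mouse 2 stood 2.85 and 2.70 above the mean of water mice 3 and 5, for A_55_P2031939 and A_52_P625527. The Aqp1 difference there was -4.18, with this mouse the lowest of its group. On slide 2, filgotinib mice 1 and 2 differed from DSS vehicle mice 1, 4 and 5 by -1.14 and -1.23 on these Aqp4 probes, with no overlap. Within scan day 1, a setting chosen after the data had been seen, DSS vehicle mice differed from water mice by 2.35 and 2.11 for Aqp4 and by -1.95 for Aqp1 (n = 3 each), again without overlap. Within that day filgotinib mice (n = 4) stood 1.49 and 1.16 above the water mice for Aqp4 and differed from them by -1.41 for Aqp1, without overlap. Against DSS vehicle mice of that day they differed by -0.86 on A_55_P2031939, with overlap, by -0.95 on A_52_P625527, without overlap, and by 0.53 for Aqp1, with overlap. With so few mice per slide or day, groups can fail to overlap by chance. The share of all probes without overlap was not computed. With slide as a fixed term, which leaves DSS vehicle against water to slide 4 alone, no aquaporin probe was called. The limma adjusted p was then 0.135 and 0.124 for the 2 Aqp4 probes and 0.0751 for Aqp1. In that fit 0.266% of all probes were called for DSS vehicle against water, compared with 17.5% without the slide.

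**Figure D3:**
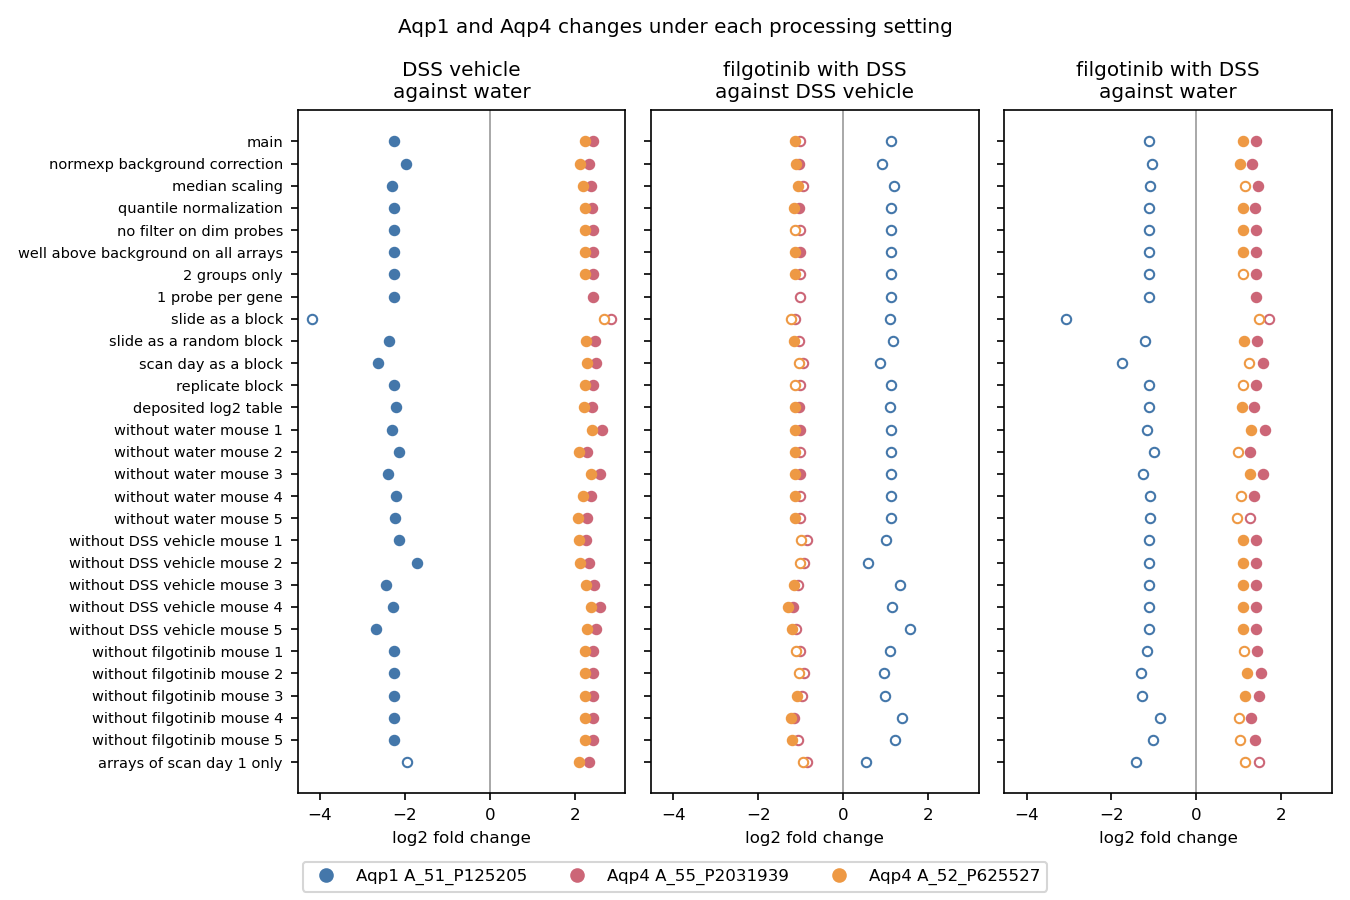
Log2 fold change (horizontal axes) of the Aqp1 probe and of both NM_009700 probes of Aqp4 in the 3 comparisons, under each processing setting and without each mouse in turn (rows). Filled points are called at an adjusted p under 0.05. No value changes sign, and for DSS vehicle against water the open points are those with slide as a block and, for Aqp1, scan day 1 alone.

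Markers of other cells were read beside these genes, for lists chosen with earlier results known. Aqp1 marks endothelium and red cells. Of 15 endothelial probes, for 12 of 14 genes, none was called by limma in any of the 3 comparisons. At an unadjusted p under 0.05, 1 was higher in DSS vehicle and 1 in filgotinib mice against water, and Tek and Tie1 had no probe that passed. The summed endothelial level was 3.33 to 5.71 in water, 3.02 to 14.1 in DSS vehicle and 2.85 to 12.4 in filgotinib mice. Of 7 red cell probes none was called either (0 also unadjusted), and the summed level was 18.9 to 46.7, 13.7 to 54.6 and 23.8 to 61.1 in the same groups. Slc4a1, the anion exchanger of red cells, had no probe that passed. Crypt stem cell markers fell together with Aqp1 in DSS vehicle against water, 21 of 25 probes with a median of -0.72, where 8.78% of all probes fell. Among them the largest difference was that of Ascl2, at -5.55 (log2), with -5.64 in filgotinib against water. Axin2, a target and inhibitor of Wnt signalling, fell by 1.86 on the log2 scale on A_52_P54176 with DSS. Lgr5, the receptor of crypt base stem cells, was not well above background in any DSS vehicle or filgotinib mouse. The summed stem cell level was 34.7 to 50.2 in water, 20.1 to 25.9 in DSS vehicle and 18.7 to 24.9 in filgotinib mice. In filgotinib against water 19 of these 25 probes fell, where 4.06% of all probes fell. In filgotinib against DSS vehicle 1 rose, where 5.58% of all probes rose. It was 1 of 3 probes of the matrix protein gene Smoc2, A_52_P646762, by 1.65 (limma adjusted p = 0.0492). The other Smoc2 probes differed by 1.33 and 0.03 and were not called (limma adjusted p = 0.122 and 0.849). All 3 were called lower than water in both DSS groups. The part of the stem cell markers, or of the other lists read here, in the Aqp1 result was not tested.

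For Aqp4, a gene known from glia of the brain, 3 of 7 neuron and glia probes rose with DSS and 2 fell with filgotinib against DSS vehicle, where 8.72% of all probes rose and 4.28% fell. Of the same 7, 1 was lower with DSS at an unadjusted p under 0.05, and 1, that of Ret, rose in filgotinib against water. The probes that rose with DSS were those of Ret, a receptor of enteric neurons, of Uchl1, a neuronal deubiquitinase, and of the tubulin gene Tubb3. Ret rose by 2.31 and Uchl1 by 1.40 (log2) with DSS, and they fell by 1.36 and 1.16 on that scale in filgotinib against DSS vehicle. The glial gene Gfap was not called, at -0.33 in DSS vehicle against water, and S100b and Sox10 had no probe that passed. The summed level was 1.23 to 1.83 in water, 2.35 to 3.60 in DSS vehicle and 1.49 to 2.36 in filgotinib mice. Epithelial markers also rose with DSS, 7 of 14 probes with a median of 0.26. Of 14 smooth muscle probes none was called (1 was higher at an unadjusted p under 0.05), with a median of 1.31 in DSS vehicle against water. Their part in the Aqp4 result was not tested.

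The genes whose pattern over the 15 mice was nearest to each called aquaporin were sought among 16189 genes, by the root mean square difference of log2 values, each gene taken relative to its own water mean. Nearest to Aqp1, whose own values had a root mean square of 1.69, were Fads1, a fatty acid desaturase, at 0.487, and Ror2, a Wnt5a receptor, at 0.576. They were followed by the amino acid transporter Slc16a10 at 0.610, by Pimreg at 0.621 and by the cysteine dioxygenase gene Cdo1 at 0.630. Nearest to Aqp4 on A_55_P2031939 (root mean square 1.70) were Ntn5 at 0.448, Gm32894 at 0.510, Ly6a at 0.532, Pdx1 at 0.578 and 1810065E05Rik at 0.594. On A_52_P625527 (1.51) they were Gm32894 at 0.394, the pancreatic and duodenal transcription factor gene Pdx1 at 0.472, Ntn5 at 0.495, 1810065E05Rik at 0.500 and Clca4b at 0.517. Of these, 4 genes were nearest to both Aqp4 probes. Ntn5, of the netrin family, rose by 2.41 with DSS and fell by 0.97 on the log2 scale with filgotinib against DSS vehicle. These genes were picked for following Aqp4 or Aqp1 over the same mice, so their changes are a description.

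Aqp8, a water channel of the apical membrane of surface colonocytes, did not pass the threshold in any comparison. It read 8.15, 7.67, 8.35, 7.76 and 7.78 in water mice 1 to 5. It read 7.81, 7.73, 7.72, 7.44 and 8.0 in DSS vehicle mice. It read 8.45, 7.70, 7.87, 7.54 and 8.10 in filgotinib mice. The groups overlapped almost wholly and no spot of this bright probe was saturated. DSS vehicle differed from water by -0.20 ± 0.17, with a 95% confidence interval of -0.58 to 0.17 (limma adjusted p = 0.441). Filgotinib differed from DSS vehicle by 0.19 (interval -0.18 to 0.56) and from water by -0.01 (interval -0.38 to 0.36). Absorptive colonocyte markers read beside it rose on 4 of 19 probes with DSS and fell on none (1 at an unadjusted p under 0.05). Those that rose were the probes of Slc51b and Mall and both probes of Car1. Every probe of Slc26a3, Car4 and Guca2b was lower, at -0.38 to -0.23 (log2), and none of these was called. Goblet cell markers rose on 6 of 11 probes and fell on none (0 also unadjusted). With DSS 8.72% of all probes rose and 8.78% fell. The median change was 0.22 for the absorptive and 0.27 for the goblet list, beside 0.02 over all probes.

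Aqp5, the water channel of salivary, lacrimal and airway glands, had 2 probes and neither passed the filter. Probe A_55_P2071236 was well above background in filgotinib mouse 1 alone, at -1.93. It read -5.38, -5.96, -5.37 and -6.08 in filgotinib mice 2 to 5. It read -5.10, -6.09, -5.64, -5.48 and -5.60 in water mice and -6.08, -5.28, -5.88, -6.78 and -6.02 in DSS vehicle mice. One mouse therefore stood apart and the others lay at background readings in every group. Probe A_55_P1990121, from base 1428 of the same transcript, was instead well above background in DSS vehicle mouse 1 alone, at -4.33. The other DSS vehicle mice read -5.56, -4.78, -6.17 and -5.09. Water mice read -7.55 to -7.04 and filgotinib mice -6.92 to -6.13. On this probe the DSS vehicle mice stood above the water mice without overlap, but 14 of the 15 readings were not well above background and no fold is given. The probes of this gene thus disagreed on which mouse carried a signal. Background readings also differed between groups in mean on this scale. Aqp4 probe A_55_P2742033, well above background on no array, averaged -7.21 in water, -6.72 in DSS vehicle and -6.43 in filgotinib mice. Squamous markers, for an epithelium that lines the anal end, rose on 2 of 10 probes and fell on 1 with DSS. Of all probes 8.72% rose and 8.78% fell.

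**Figure D4:**
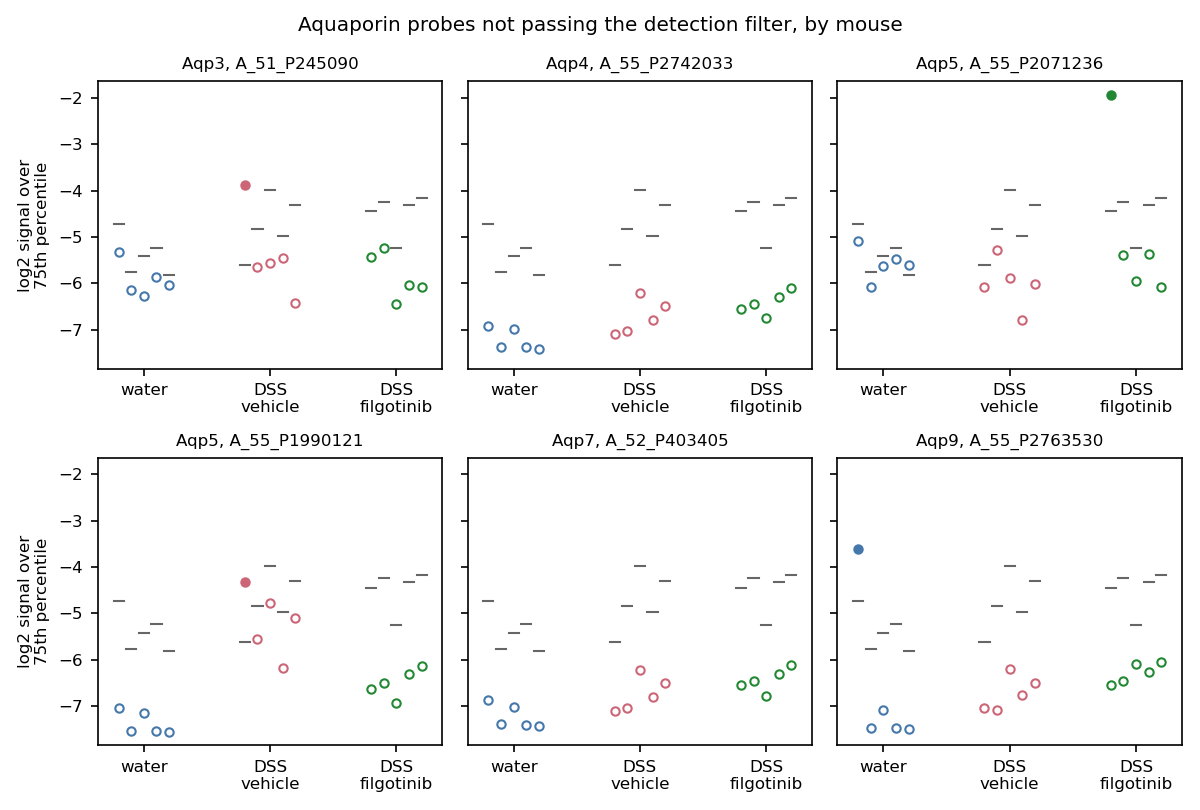
Log2 signal relative to the array's 75th percentile (vertical axis) of the 6 aquaporin probes that did not pass the detection filter, by mouse in the order 1 to 5 within a group. Filled points are well above background, and the grey bar over each mouse is the dimmest detected probe of that array, which runs from -5.82 to -3.98. Only 4 points are filled, 1 each for Aqp3, both Aqp5 probes and Aqp9.

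Among the aquaglyceroporins, Aqp3, the basolateral glycerol and water channel of many epithelia, had 1 probe, A_51_P245090, from base 1498 of NM_016689. It was well above background in DSS vehicle mouse 1 alone, at -3.88. The other DSS vehicle mice read -5.65, -5.56, -5.45 and -6.41. Water mice read -5.32, -6.15, -6.28, -5.87 and -6.03, and filgotinib mice -5.44, -5.23, -6.44, -6.04 and -6.07. The groups overlapped, and no fold is given.

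Aqp7, the glycerol channel of adipocytes, passed on probe A_55_P1955896, from base 2140 of NM_007473. It read -4.10, -3.62, -3.99, -3.67 and -4.35 in water mice 1 to 5. It read -4.39, -4.03, -4.59, -4.13 and -3.86 in the DSS vehicle group and -3.99, -3.91, -3.72, -4.10 and -3.60 in filgotinib mice. DSS vehicle mouse 3 and filgotinib mouse 4 were not well above background, and the groups overlapped. The differences were -0.25 (95% confidence interval -0.60 to 0.09) for DSS vehicle against water and 0.33 (interval -0.01 to 0.68) for filgotinib against DSS vehicle. Neither passed (limma adjusted p = 0.294 and 0.197), nor did filgotinib against water at 0.08 (limma adjusted p = 0.797). Its other probe, A_52_P403405, was well above background on no array. Adipocyte markers read beside it rose on 1 of 11 probes with DSS, near the 8.72% of all probes that rose. Adipoq and Plin1 had no probe that passed.

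Aqp9, the glycerol and solute channel of liver and leukocytes, was read by A_66_P126202 on all 15 arrays. It read -1.94, -2.52, -1.90, -2.16 and -2.79 in water mice 1 to 5. It read -1.92, -2.34, -2.29, -2.56 and -2.55 in the DSS vehicle group and -2.33, -2.73, -2.38, -1.84 and -2.36 in filgotinib mice. The groups overlapped, and the differences of -0.07, 0.00 and -0.07 in the 3 comparisons had 95% confidence intervals within -0.49 and 0.42 (limma adjusted p = 0.827, 0.993 and 0.859). The other probe, of the curated transcript NM_001271843, was well above background in water mouse 1 alone, at -3.61, and read -7.49 to -6.05 in the other 14 mice. The probe that gave a signal in every mouse is thus the one designed on a predicted transcript record. Neutrophil markers read beside it rose on 2 of 9 probes with DSS, S100a9 by 3.85 and Ly6g by 0.60 (log2). Of all probes 8.72% rose in that comparison.

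Aqp11 was read by both probes in every mouse and was not called in any comparison. Probe A_55_P1995507 read 0.71, 0.95, 1.28, 0.88 and 1.09 in water mice 1 to 5. It read 0.86, 1.18, 1.1, 1.09 and 1.09 in the DSS vehicle group and 1.38, 0.83, 0.78, 1.07 and 0.70 in filgotinib mice. The groups overlapped, and DSS vehicle differed from water by 0.08 with a 95% confidence interval of -0.20 to 0.36 (limma adjusted p = 0.696). Filgotinib differed from DSS vehicle by -0.11 (limma adjusted p = 0.615). The junction-crossing probe A_55_P2730441 read 0.45 to 0.95 in water, 0.62 to 0.79 in DSS vehicle and 0.26 to 0.98 in filgotinib mice. It differed by 0.01, -0.22 and -0.21 in the 3 comparisons (limma adjusted p = 0.967, 0.300 and 0.328). The probes stood 0.38 ± 0.10 apart within a mouse (SD, n = 15), from 0.23 to 0.57. By group this was 0.30 ± 0.06 in water, 0.37 ± 0.09 in DSS vehicle and 0.47 ± 0.07 in filgotinib mice (SD, n = 5 each). Water and filgotinib mice did not overlap in it.

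Other genes of the family on the array were Mip, Aqp2, Aqp6 and Aqp12. Mip was well above background on no array. Aqp12 rose by 0.60 (log2) in filgotinib against DSS vehicle (limma adjusted p = 0.0455), from a mean of -4.33 to -3.73. The mean of -4.33 lies within the range of the dimmest detected probes of the arrays, -5.82 to -3.98. Aqp6, with 1 of its 3 probes passing, rose by 0.29 in filgotinib against water (limma adjusted p = 0.0439). Of all probes 5.58% rose in the first of these comparisons and 4.56% in the second. Aqp2, the vasopressin-regulated channel of the kidney, was called in no comparison.

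Salt transport, which drives water across the colon, was read from 33 genes with 61 probes that passed. With DSS, 10 probes fell and 5 rose, where 8.78% of all probes fell and 8.72% rose, so the count of rises lay near the background. The list median was -0.08 beside 0.02 over all probes. Falls included 1 of 4 probes of the bicarbonate cotransporter gene Slc4a4 (by 1.56 on the log2 scale) and the epithelial sodium channel gamma subunit gene Scnn1g (by 1.39). Kcnq1 and Kcne3, whose products form a basolateral potassium channel that sustains chloride secretion, fell too. Kcnq1 fell by 0.98 to 1.16 on 3 of 4 probes and Kcne3 by 0.80. In filgotinib against DSS vehicle 5 probes rose and none fell (1 at an unadjusted p under 0.05), with a median of 0.00 beside -0.01 over all probes. Over all probes 5.58% rose and 4.28% fell there, and the 61 probes were not tested against these shares. The 5 that rose included Sgk1, an aldosterone-induced kinase, at 1.28 and the peptide hormone gene Guca2b at 0.74. The others were Kcnq1 on 2 of 4 probes at 0.64 and 0.68, and the chloride channel gene Cftr on 1 of 2 probes at 0.58. In filgotinib against water 1 of 3 probes of the mineralocorticoid receptor gene Nr3c2 rose (0.43), and 2 fell, of Slc12a2 by 0.74 and of Kcnma1 on 1 of 6 probes by 0.76 on the log2 scale. In that comparison 4.56% of all probes rose and 4.06% fell. Glycerol and fat handling genes (17 probes of 11 genes) showed 1 fall with DSS, of the acyltransferase gene Gpam by 0.75, where 8.78% of all probes fell. With filgotinib against DSS vehicle 1 probe rose, of the glycerol phosphate dehydrogenase gene Gpd1 at 0.50, near the 5.58% over all probes. None was called in filgotinib against water (4 higher and 2 lower at an unadjusted p under 0.05).

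**Figure D5:**
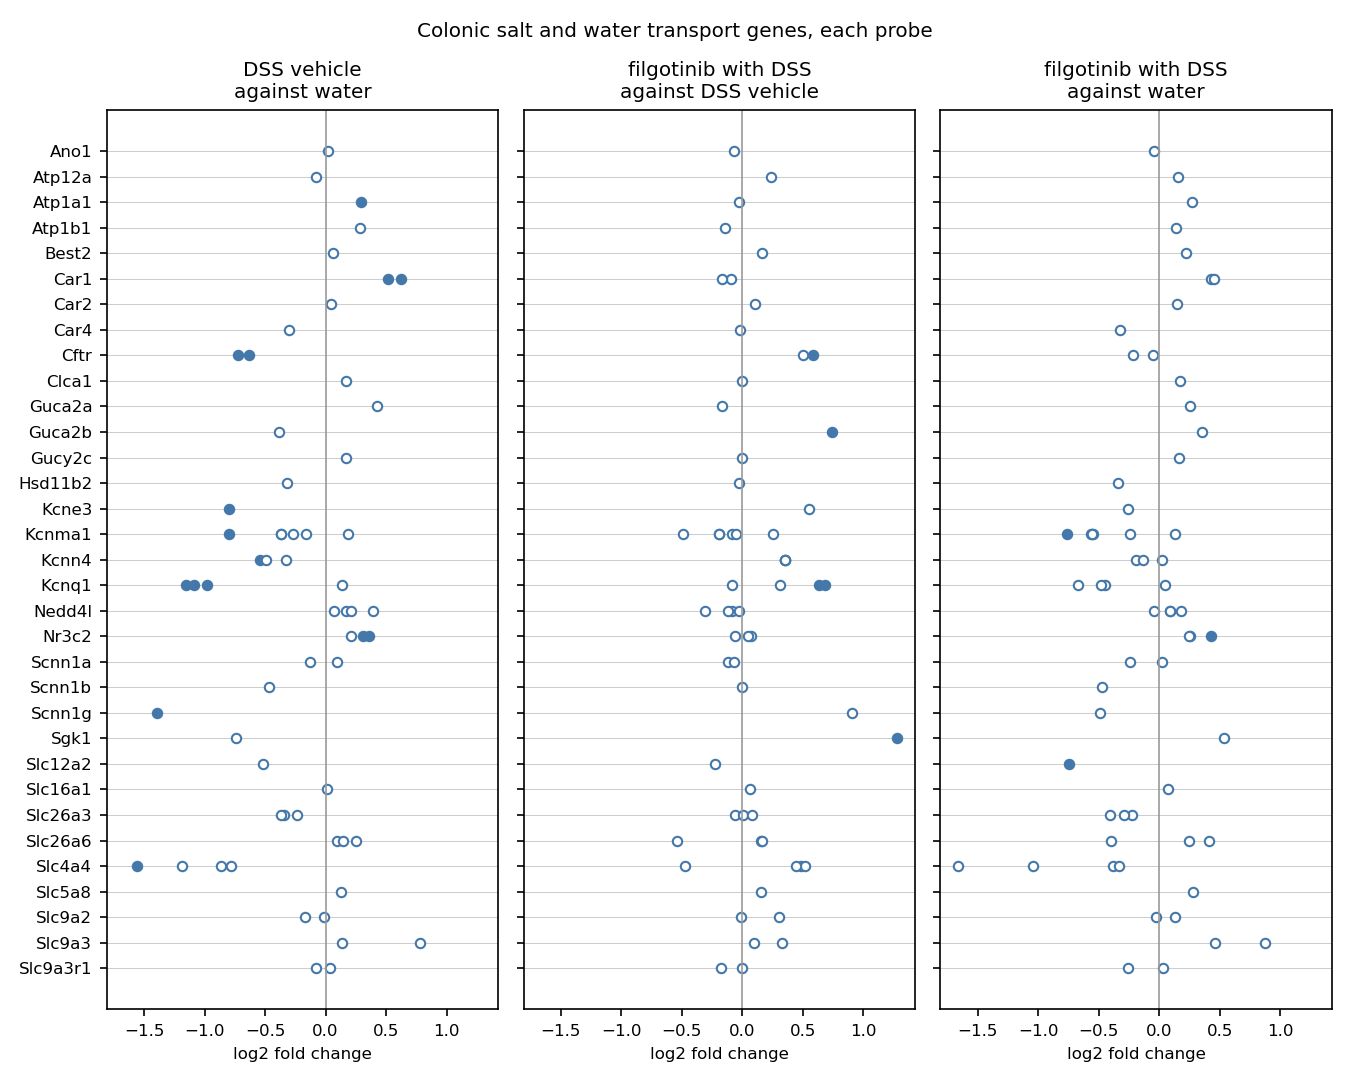
Log2 fold change (horizontal axes) of each of the 61 probes of 33 salt and water transport genes (rows) in the 3 comparisons. Each point is 1 probe, filled where called at an adjusted p under 0.05. With DSS 10 filled points lie left of 0 and 5 right of it, and in filgotinib against DSS vehicle all 5 filled points lie right of 0.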

How the data were processed

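Per the file headers, the scanner files give a Cy3 intensity per spot, background-subtracted and spatially detrended with Agilent Feature Extraction 11.5.1.1. The deposited table of the series holds log2 values of 32349 probes, 9 of them aquaporin probes. Across probes each column and its own array had r of 0.9988 to 0.9997, column medians were 8.84 to 8.86, and the authors' normalization between arrays is not given in the sources used here. Limma is named in the submitters' processing notes.

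The 75th percentile of each array was subtracted from log2 of its processed signal for 56504 probes, with 101 marked as outliers left out. Probes well above background on at least 5 arrays (33466) were fitted with limma 3.58.1 in R 4.3.3 over all 15 arrays, group as the factor, two-sided, adjusted by Benjamini-Hochberg. The code was tested on simulated data. Named are the 8 members, up to 4 called genes of each list by size of change, and the 5 nearest patterns per called probe. Marker genes named beside a result (Gfap, Axin2, Tubb3 and others) were in addition chosen after their values were seen. Members and lists were chosen with earlier results of these data known. RefSeq tables of GRCm38.p6 served for names only. Tables and figures were made with pandas 2.3.3 and numpy 2.4.6 in Python 3.11.15 and with matplotlib 3.10.9. Since the labels give 1 mouse per array, p-values rest on the spread between mice within groups, and precision is limited by having 5 arrays a group. Slides were spread unevenly over the groups, so slide and group differences are partly mixed.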

Additional observations from a re-analysis of the deposited data

Results flagged for a closer look

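In 3 of the 45 groups of 5 mice tested over the 15 aquaporin probes, 1 mouse stood apart by more than Dixon's 95% critical value of 0.71 (gap over range), where chance marks about 1 group in 20. Aqp5 probe A_55_P2071236 read -1.93 in filgotinib mouse 1, against -6.08 to -5.37 in the other 4. Aqp9 probe A_55_P2763530 read -3.61 in water mouse 1, against -7.49 to -7.09 in the other 4. Neither probe entered a test. Aqp11 probe A_55_P1995507 read 0.86 in DSS vehicle mouse 1, against 1.09 to 1.18 in the other 4, and was not called with or without this mouse.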

How the results depend on the processing

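Under 28 alternatives, 15 of which left out 1 mouse, none of the 6 called changes of Aqp1 and Aqp4 changed sign, and 137 of their 165 values under these alternatives stayed called. For DSS vehicle against water, the 2 rises and 1 fall were kept under normexp, median and quantile scaling and without any single mouse, and with no filter the rises were 3. They became 0 and 0 with slide as a block, the rises 1 with 1 probe per gene, and the falls 0 on scan day 1 only. For filgotinib against DSS vehicle, the 1 fall became 2 under normexp, quantile normalization, detection on all arrays and the deposited log2 table. It became 0 with 1 probe per gene, slide, scan day or replicate block, and scan day 1 only. With no filter it stayed 1, but Aqp4 A_52_P625527 lost its call (adjusted p = 0.0585) and Aqp5 A_55_P1990121, which did not pass detection, was called. For filgotinib against water, the 2 rises became 4 under normexp, 5 with no filter, 1 under median scaling, with 2 groups only, with 1 probe per gene, and with scan day or replicate block, and 0 with slide as a block and on scan day 1 only. With no filter, 3 of the 5 did not pass detection, and 2 of those (A_55_P2742033 and A_52_P403405) were well above background on no array.

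Without 1 mouse, the falls in filgotinib against DSS vehicle ranged from 0 to 2 and the rises against water from 0 to 2. The fall of Aqp4 A_52_P625527 lost its call without DSS vehicle mouse 1 (adjusted p = 0.0740) or 2 (0.0607), or filgotinib mouse 1 (0.0507) or 2 (0.0656). Its rise against water was lost without water mouse 2 (0.0804), 4 (0.0756) or 5 (0.0803), or filgotinib mouse 1 (0.0515), 4 (0.0752) or 5 (0.0797). That of A_55_P2031939 was lost without water mouse 5 (0.0508). Without DSS vehicle mouse 3, whose array was extracted with a grid file, no count changed. Among the 21 changes that were not called, 52 of 579 values changed sign and 10 became called. Of these 10, 8 were of Aqp4 A_55_P2031939 in filgotinib against DSS vehicle, and normexp gave 1 each for Aqp4 A_55_P2742038 and Aqp7 in filgotinib against water (adjusted p = 0.0467 and 0.0226).

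The mouse numbers were not treated as pairs in the main fit. Deviations of same-numbered mice correlated at -0.471 to 0.497, and 2 of 15 pairs were over 0.1. With slides spread unevenly over the groups, these values cannot settle whether the numbers pair the samples. With the replicate block, Aqp4 A_52_P625527 had an adjusted p of 0.0532 against DSS vehicle and 0.0651 against water. Dim probes (Aqp3, Aqp5) are limited by signal over background.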
